A study of Mus musculus with 6 samples.

Results

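The genes described here encode the proteins of the cytosolic ribosome. They were taken from the deposited table as the protein-coding rows whose symbol is Rps, Rpl or Rplp followed by a number, with at most 1 further letter and digit. That rule found 83 of 45777 genes. Of these, 46 encode canonical proteins of the large subunit, 30 encode canonical proteins of the small subunit, and 7 are paralogues, which are related copies often restricted to certain tissues. After the removal of genes with low counts, 79 members were tested, among them all 76 canonical genes and 3 paralogues.

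RNA was sequenced from 6 samples of cultured cells described as dorsal root ganglion (DRG) neurons from adult female wild-type C57BL/6 mice aged 8 weeks. These are the sensory neurons whose cell bodies sit beside the spinal cord. PBS was given to 3 samples as the negative control. The other 3 were exposed over 12 hours to 100 ng/ml of recombinant oncomodulin (ONCM), which binds calcium. The samples are called biological replicates without naming separate cultures or animals, so the p-values measure only the spread between these samples, which may be technical.

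The ribosome joins amino acids into protein. Its small subunit reads the messenger RNA, and its large subunit forms the peptide bond and holds the exit tunnel. Each ribosomal protein is made from its own gene and is needed in about equal numbers, so these transcripts are abundant in nearly every cell and tend to be regulated together. Many of the messages begin with a run of pyrimidines (C and T in DNA), called a terminal oligopyrimidine or TOP tract, through which mTORC1, a growth-signalling kinase complex, controls their translation. In sensory neurons, ribosomal protein messages are also carried into axons, where local protein synthesis takes part in growth and repair.

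Library totals ran from 53770820 to 64477014 counts. Marker genes of neurons in general summed to between 23525 and 24327 CPM (counts scaled to a common library size) with PBS and to between 22448 and 23660 CPM with ONCM, and those of sensory neurons to 4726 to 4840 and 3315 to 3341 CPM. None of these markers was at 0. Other cells were present, with Schwann cell markers at 4545 to 4752 CPM over the 6 libraries, fibroblast markers at 385 to 389 and 522 to 541 CPM, and macrophage markers at 39.0 to 42.1 and 117.9 to 122.8 CPM. Of the tested markers 7 of 12 general neuronal genes fell and 3 rose, with a median log2 fold change of -0.31. Of the sensory neuron genes 9 of 11 fell, and 10 of 11 macrophage and 6 of 9 fibroblast genes rose. Over all tested genes, 23.9% rose and 24.4% fell. The part of cell makeup in the results below was not tested, and in bulk RNA fewer cells of a type and less RNA per cell cannot be told apart. The groups also differed in sex-linked RNA, although all samples are labelled female. Xist, made from the inactive X chromosome, was at 0.485 to 0.588 CPM with PBS and 413 to 513 CPM with ONCM, and Y-linked Ddx3y at 58.1 to 62.4 and 15.1 to 16.9 CPM. Sex or source of the cells and treatment therefore cannot be told apart for any gene here.

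Ribosomal protein transcripts were slightly but broadly more abundant in the ONCM libraries. The 76 canonical genes took 1.42%, 1.46% and 1.51% of all counts with PBS and 1.68%, 1.61% and 1.69% with ONCM. The groups did not overlap, and the mean share went from 1.46% ± 0.0469 to 1.66% ± 0.0432 (SD, n = 3 per group), a ratio of 1.14. This share is given as a description without a test. By edgeR's quasi-likelihood test, 69 of the 76 canonical genes passed an adjusted p of 0.05 and were higher with ONCM, 0 fell, and the other 7 missed that threshold. Among all tested genes 23.9% rose and 24.4% fell. The lowest ONCM library lay above the highest PBS library for 67 of the 76 genes, against 27.6% of all tested genes.

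**Figure D1:**
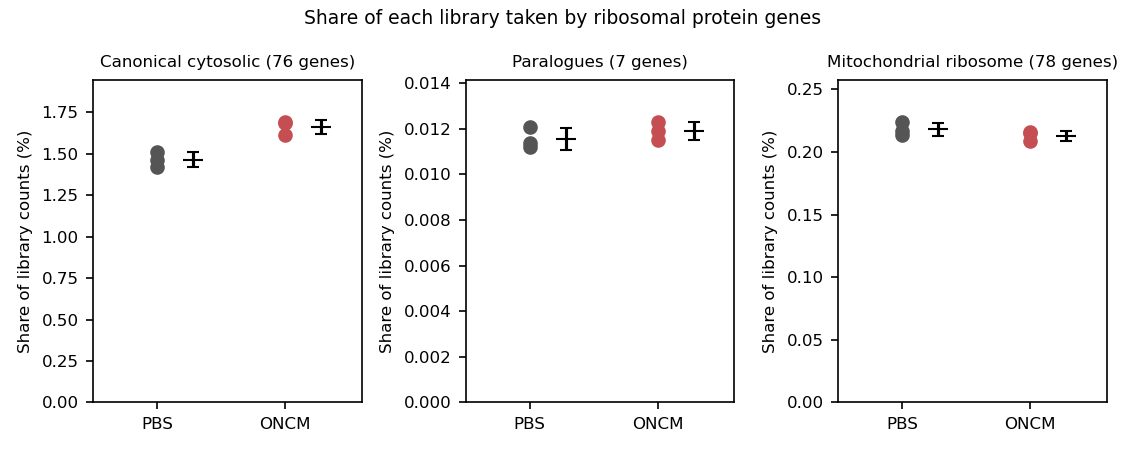
Share of each library's counts (percent, vertical axis from 0) taken by canonical cytosolic ribosomal protein genes, their paralogues and mitochondrial ribosomal protein genes. Each point is 1 library, and the bar beside the points gives the mean ± SD (n = 3). The canonical share is 1.42% to 1.51% with PBS and 1.61% to 1.69% with ONCM, while the other 2 panels overlap between groups.

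The rises were small. The median log2 fold change of the canonical genes was 0.20, which is 1.146-fold, beside a median of -0.0021 over all 20354 tested genes. Single values ran from -0.03 to 0.42, and 75 of the 76 were above 0. A log2 fold change of at least 0.2 was found for 37 genes and one of at least 0.3 for 7, and 0 reached 1.5-fold. By comparison, 1938 of the 4869 genes that rose in the whole table did so by at least 1.5-fold. The median standard error (SE) of the canonical genes was 0.0377, below the 0.0804 of all tested genes.

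**Figure D2:**
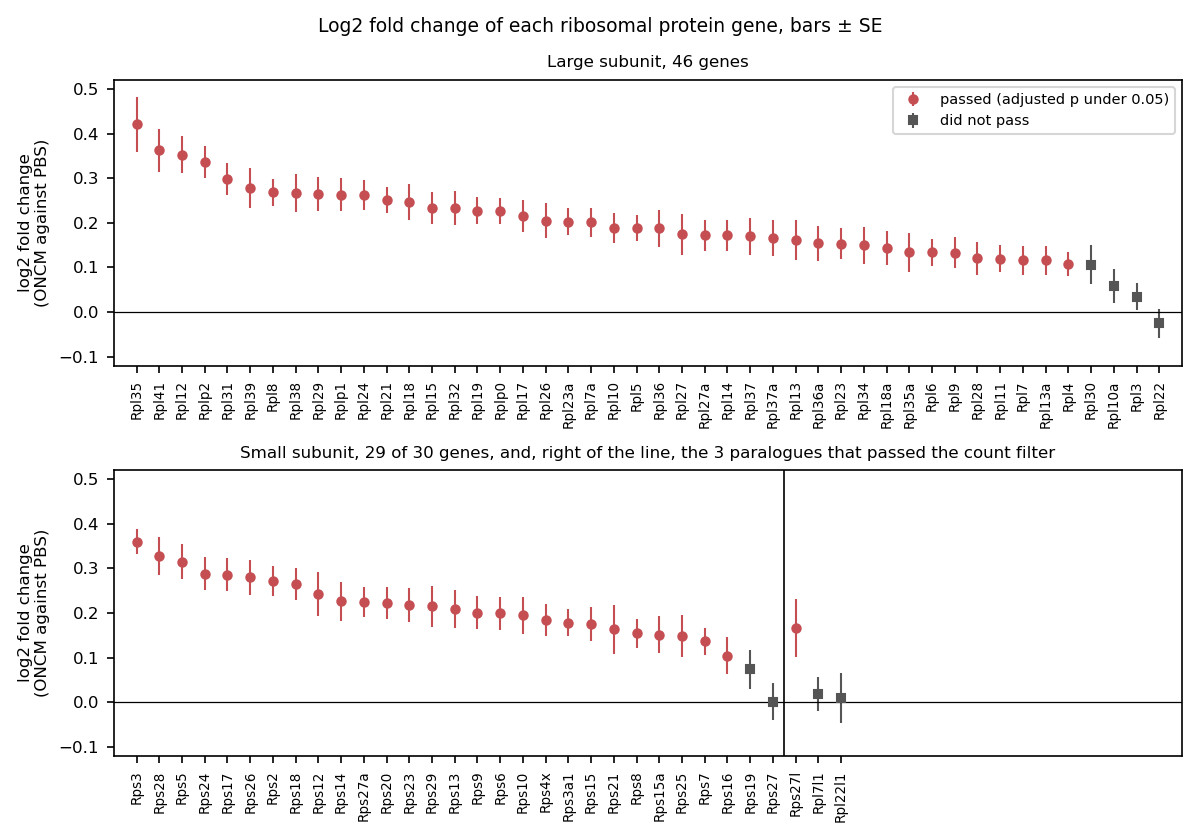
Log2 fold change (ONCM against PBS, vertical axis) of the tested ribosomal protein genes, ordered by size within each class, with bars of ± SE. Red circles passed an adjusted p of 0.05 and grey squares did not, and 1 small subunit gene is not shown; the large subunit runs from Rpl35 at 0.42 down to Rpl22 at -0.03.

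Both subunits took part. For the large subunit 42 of 46 genes rose, with a median log2 fold change of 0.19 and a range from -0.03 to 0.42. For the small subunit 27 of 30 rose, with a median of 0.20 and a range from 0.00 to 0.36. Of all tested genes 23.9% rose. The summed counts of the large subunit divided by those of the small subunit were 1.93, 1.92 and 1.89 with PBS and 1.85, 1.89 and 1.88 with ONCM. This ratio was slightly lower in each ONCM library, with 1.888 in the nearest ONCM library and 1.894 in the nearest PBS library. The 69 raised genes came from all 19 chromosomes that carry canonical members.

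The genes of 1 library deviated together from their group means. Of the 76 canonical genes, 68 had their lowest PBS value in replicate 1 and 57 their highest in replicate 3. Among the ONCM libraries 58 genes were lowest in replicate 2. The median log2 deviation from the group mean was -0.05 in PBS replicate 1, 0.04 in PBS replicate 3 and -0.05 in ONCM replicate 2. Members of 1 library thus shared their deviations and are not independent measurements. Without ONCM replicate 2, 73 members rose, beside 21.1% of all tested genes, and without PBS replicate 1, 61 did, beside 20.6%.

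**Figure D3:**
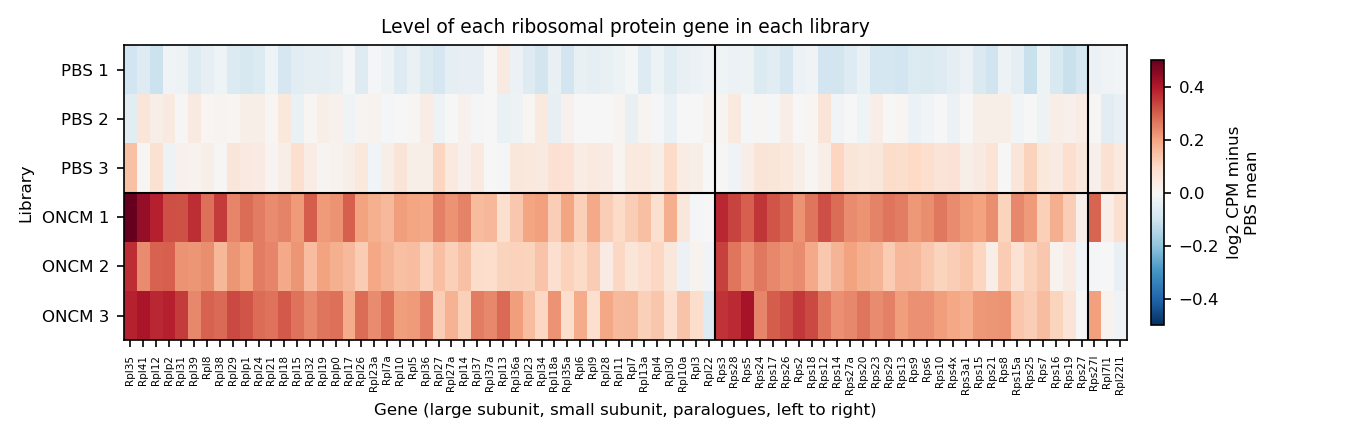
Log2 CPM of the ribosomal protein genes (columns) in each library (rows), minus the gene's PBS mean; red is higher and blue lower, on a scale from -0.5 to 0.5. Vertical lines divide large subunit, small subunit and paralogues, and 1 small subunit gene is not shown. PBS replicate 1 is the bluest row, ONCM replicate 2 the palest ONCM row, and the Rpl22 column stays pale throughout.

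The 6 canonical genes with the highest log2 fold changes were Rpl35, Rpl41, Rps3, Rpl12, Rplp2 and Rps28. Rpl35 (chr2:39001581-39005131, GRCm38) encodes a protein at the mouth of the exit tunnel. Its level was 112.1, 115.3 and 132.6 CPM with PBS and 170.5, 154.7 and 156.4 CPM with ONCM. The ONCM values all lay above the PBS values, with PBS replicate 3 standing above its group. It rose by 0.42 on the log2 scale (SE 0.06, edgeR adjusted p = 1.77e-04). Rpl41 (chr10:128548110-128549168), which encodes the smallest ribosomal protein, gave 155.9, 169.9 and 163.4 CPM in the control libraries and 221.0, 191.9 and 216.0 CPM after ONCM. It rose by 0.36 (SE 0.05, edgeR adjusted p = 1.91e-05), and the ONCM libraries spread more than the PBS libraries.

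Rps3 (chr7:99477896-99483709) had the smallest adjusted p of all members. Its protein lines the entry of the messenger RNA channel and also has roles in DNA repair. The 3 PBS libraries held 264.6, 270.9 and 269.5 CPM and the 3 ONCM libraries 348.5, 339.8 and 344.5 CPM. The groups did not overlap, and the log2 fold change was 0.36 (SE 0.03, edgeR adjusted p = 3.96e-09).

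Rpl12 and Rplp2 belong to the stalk region of the large subunit, which recruits elongation factors. Rpl12 counts were 173.4, 190.6 and 197.0 CPM with PBS, and 244.7, 229.2 and 242.5 CPM with ONCM. Rplp2 was at 99.5, 104.0 and 99.0 CPM and at 126.0, 124.1 and 131.8 CPM. Neither gene overlapped between groups, and they rose by 0.35 and 0.34 on the log2 scale (SE 0.04 each). The other acidic stalk gene, Rplp1, rose from 220.9 ± 10.3 to 265.1 ± 10.7 CPM (SD, n = 3 per group), and the stalk base gene Rplp0 from 580.4 ± 13.5 to 679.1 ± 23.0 CPM. All 3 Rplp genes thus rose, by 0.23 to 0.34, beside 23.9% of all tested genes. Rps28, a small protein near the messenger RNA exit site, rose from 40.2 ± 1.17 to 50.4 ± 1.92 CPM.

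Of the canonical genes 7 did not pass, among them Rpl22, Rps27, Rpl3, Rpl10a, Rps19 and Rpl30. Rpl22 (chr4:152324436-152334082), a large subunit protein that is dispensable in many cells, was at 127.0, 130.0 and 128.3 CPM with PBS and 128.4, 127.2 and 123.0 CPM with ONCM. The groups overlapped, and the log2 fold change of -0.03 had a 95% interval from -0.09 to 0.04, which lies below the canonical median of 0.20. Rps27 (chr3:90212667-90213648), a zinc finger protein of the small subunit, was at 58.0, 63.4 and 64.0 CPM and at 62.8, 61.1 and 61.6 CPM. The groups overlapped here too, with a log2 fold change of 0.00 and an interval from -0.09 to 0.09.

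Rpl3, whose protein reaches toward the peptidyl transferase centre, was among the most abundant members and yet had 607.2 ± 12.3 CPM with PBS and 621.9 ± 20.9 CPM with ONCM (SD, n = 3 per group). Its log2 fold change of 0.03 had an interval from -0.03 to 0.10. For Rpl10a and Rps19 the values were 0.06 and 0.07, with intervals from -0.02 to 0.14 and -0.02 to 0.17. Rps19 is the gene most often mutated in Diamond-Blackfan anaemia, an inherited failure of red cell production. Rpl30 missed the threshold narrowly, at 0.11 (SE 0.04, edgeR adjusted p = 0.0548), while Rps16 passed at 0.10 (adjusted p = 0.0486). Rpl10a passed without ONCM replicate 2 (0.10, edgeR adjusted p = 0.0489).

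The 5 canonical genes with the highest TPM, a level scaled for transcript length, were Rplp1, Rpl4, Rps2, Rplp0 and Rpl10. Their means over the 6 libraries were 1287, 1231, 1173, 1148 and 1128 TPM. All 5 rose on counts, Rps2 by 0.27, Rplp1 by 0.26, Rplp0 by 0.23, Rpl10 by 0.19 and Rpl4 by 0.11 on the log2 scale. The canonical genes as a whole had a median mean level of 573 TPM and a range from 61.0 to 1287 TPM, a ratio of 21.1 between the highest and the lowest. The lowest levels were those of Rps15a, Rps20 and Rpl22, at 61.0, 93.2 and 142 TPM. These 3 genes also had the most CPM per TPM unit, a measure that grows with the transcript length the authors assigned, at 6.97, 4.68 and 3.02 times the canonical median. The order of levels was nearly the same in both groups, with Pearson's r = 0.994 across the 76 genes on log2 mean TPM, given as a description since genes are not replicates.

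Chromosome X carries 4 canonical genes, Rpl10, Rpl36a, Rpl39 and Rps4x. All 4 rose, by 0.19, 0.15, 0.28 and 0.18 on the log2 scale. On other chromosomes 65 of the 72 canonical genes rose, with a median of 0.20, and of all tested genes 23.9% rose. Rps4x has a Y-linked partner in humans but not in mice. Its values were 265.7, 267.9 and 288.1 CPM with PBS, and 322.2, 298.0 and 312.9 CPM with ONCM. The X-linked members lay within the range of the autosomal ones. Xist differed between the groups, and sex or source of the cells cannot be told apart from treatment for genes on any chromosome. In a fit without chromosomes X, Y and MT, 65 members rose, beside 23.8% of all genes, and the canonical median was 0.20.

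Paralogues of ribosomal proteins can replace a canonical protein in particular tissues. Rpl3l is known from heart and skeletal muscle, and Rpl10l and Rpl39l from male germ cells. These genes and Rpl32l were nearly uncounted. Rpl10l had 0 counts in all 6 libraries. Rpl3l had 23, 4 and 8 counts with PBS and 6, 9 and 12 with ONCM, and Rpl32l had 8, 3 and 12 and 3, 6 and 6. Rpl39l had 0 counts in each PBS library and 4, 3 and 4 in the ONCM libraries, which is at or near the floor of 3 counts, so no fold is given.

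The 3 counted paralogues among the members were Rpl7l1, Rpl22l1 and Rps27l. Rps4l, a paralogue that is not among the members, was also counted. It rose from 22.8 ± 1.07 to 30.4 ± 2.66 CPM (SD, n = 3 per group), by 0.42 on the log2 scale (SE 0.06, edgeR adjusted p = 1.52e-05). Rpl22l1, the partner of Rpl22, was at 19.6, 19.3 and 20.5 CPM with PBS and 20.9, 19.3 and 19.6 CPM with ONCM. The groups overlapped, and the log2 fold change of 0.01 had an interval from -0.11 to 0.13. Rpl22 protein is known to repress Rpl22l1, and neither gene of the pair passed the test. Rpl22l1 stood at 67.3% ± 1.93 of the Rpl22 level in TPM with PBS and at 69.9% ± 2.41 with ONCM (SD, n = 3 per group). That ratio rests on the transcript lengths the authors assigned. In CPM the means of Rpl22l1 and Rpl22 were 19.8 and 128 with PBS and 19.9 and 126 with ONCM. Rpl7l1 was at 74.2 ± 3.49 and 75.1 ± 0.776 CPM, with an interval of its log2 fold change from -0.06 to 0.10, while canonical Rpl7 rose by 0.12.

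Rps27l, known as a p53 target as well as the partner of Rps27, was at 20.8, 21.4 and 21.7 CPM with PBS and 26.0, 21.2 and 24.5 CPM with ONCM. The groups overlapped because of ONCM replicate 2. The log2 fold change was 0.17 (SE 0.07, edgeR adjusted p = 0.0446). That call held without ONCM replicate 2 but was lost on leaving out any 1 of the other 5 libraries (edgeR adjusted p from 0.0862 to 0.251), under DESeq2 (adjusted p = 0.12) and with library totals alone, no low count filter and limma on log2(TPM + 1) (adjusted p = 0.0586, 0.0655 and 0.374).

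Sequences around the annotated starts were read for runs of C and T like those of the TOP tract. A short run there need not mean that the tract is absent, since the starts themselves were not measured. RefSeq windows (GRCm38.p6, from 250 bases before to 50 after the start) were matched for 63 of the 83 members, 56 of them canonical. Each line below gives 40 bases before and 20 after the start, and capitals mark the longest unbroken run of C and T that touches the 5 bases on either side of the start. The set holds genes that rose with a long run (Rpl35, Rplp2, Rps6, Rpl15), genes with high fold changes and a short run (Rps3, Rpl41), genes that did not pass (Rps27, Rpl22) and the paralogues Rpl22l1 and Rpl7l1.
Rpl35 (chr2:39005112-39005171, minus strand): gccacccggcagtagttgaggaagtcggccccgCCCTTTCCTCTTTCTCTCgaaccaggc
Rplp2 (chr7:141447611-141447670, plus strand): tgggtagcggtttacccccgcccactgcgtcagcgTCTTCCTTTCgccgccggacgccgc
Rps6 (chr4:86857348-86857407, minus strand): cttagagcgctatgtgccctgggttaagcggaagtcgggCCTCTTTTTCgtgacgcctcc
Rpl15 (chr14:18270967-18271026, minus strand): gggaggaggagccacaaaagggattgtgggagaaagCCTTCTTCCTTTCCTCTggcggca
Rps3 (chr7:99483690-99483749, minus strand): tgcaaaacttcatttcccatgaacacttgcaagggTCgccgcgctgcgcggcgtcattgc
Rpl41 (chr10:128549149-128549208, minus strand): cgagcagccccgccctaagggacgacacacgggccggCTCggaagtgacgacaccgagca
Rps27 (chr3:90213629-90213688, minus strand): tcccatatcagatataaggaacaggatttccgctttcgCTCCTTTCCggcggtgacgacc
Rpl22 (chr4:152324396-152324455, plus strand): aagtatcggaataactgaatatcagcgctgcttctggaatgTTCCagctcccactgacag
Rpl22l1 (chr3:28805468-28805527, plus strand): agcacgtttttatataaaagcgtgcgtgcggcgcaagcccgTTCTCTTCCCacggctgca
Rpl7l1 (chr17:46782637-46782696, minus strand): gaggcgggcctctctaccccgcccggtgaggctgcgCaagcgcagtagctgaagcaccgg
The run was 18 bases in Rpl35 and 17 in Rpl15, but 2 in Rps3 and 3 in Rpl41, all 4 of which rose. In Rps27, which did not pass, it was 9 bases. In Rpl22, which did not pass either, it was 4 bases at the printed start and 1 at a further annotated start. Rps6, whose protein is phosphorylated downstream of mTORC1, had a run of 10 bases and rose by 0.20 on the log2 scale.

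A run of at least 8 pyrimidines at the start was found in 22 of 56 canonical genes (39.29%) and in 10.96% of the 27025 genes with a window. The longer form of at least 12 was found in 10 canonical genes (17.86%) and in 3.35% of all. The motif CTTTCC on the gene's strand, which can lie inside such a run, occurred in the window of 39.29% of canonical genes and 16.01% of all genes. The motif CTTCCG on either strand, the core bound by ETS family factors such as GABPA, occurred in 39 canonical genes (69.64%) and in 18.78% of all genes. The motif GGCGGG on either strand occurred in 64.29% of canonical genes and 37.93% of all genes. The E-box CACGTG, the same on both strands, was found in 10.71% and 8.09%, and the TATA box form TATAAA on either strand in 10.71% and 15.67%. Within the canonical genes a run of at least 8 was present in 21 of the 52 that rose and in 1 of the 4 that did not pass. CTTTCC was present in 18 of the 52 and in 4 of the 4, and CTTCCG in 38 and in 1. A gene with several annotated starts was counted if any of its windows held the run or motif. These counts are matches of letters and not measured binding or start sites.

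Transcript length moved with the result. The tested protein-coding genes were divided into 10 equal classes by summed counts per summed TPM over the 6 libraries, which grows with the assigned transcript length. In the shortest class, which holds 63 of the 76 canonical genes, the 1547 other genes had a median log2 fold change of 0.06, and 29.8% of them rose. In the longest class the median of 1612 genes was -0.06, and 19.85% rose. The canonical genes of the shortest class had a median of 0.19 and 58 of the 63 rose. Among the other genes of that class with a mean of at least 30 CPM in PBS, the median was 0.06 and 40.15% of 401 rose. Ribosomal RNA also differed, at 0.238% to 0.259% of counts with PBS and 0.179% to 0.194% with ONCM. The part of length and of RNA composition in the rises was not tested.

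**Figure D4:**
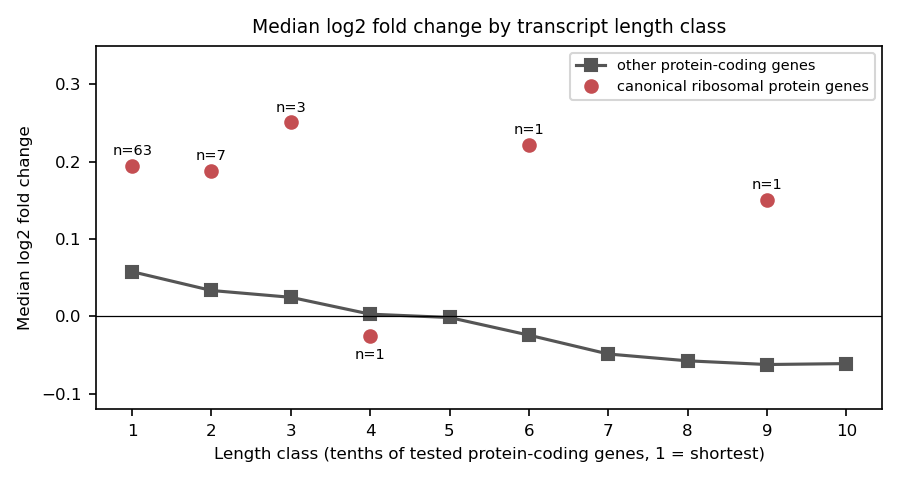
Median log2 fold change (vertical axis) by length class of tested protein-coding genes (horizontal axis, 1 is the shortest). Grey squares are all other protein-coding genes, falling from 0.06 to -0.06, and red circles are canonical ribosomal protein genes with their number; those in the shortest class lie at 0.19.

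On TPM the rises were fewer and smaller. With limma on log2(TPM + 1), 49 members rose, 1 fell and the canonical median was 0.13, while 15.1% of all tested genes rose and 22.9% fell. The median of all genes also shifted, to -0.04. Rpl22 was the gene that fell (-0.10, limma adjusted p = 0.0239). Of the genes named above as raised, Rpl4, Rps15a, Rps16, Rpl7 and Rps27l were no longer past the threshold. Rpl5, a partner of 5S ribosomal RNA, rose by 0.19 on counts but had -0.02 on log2(TPM + 1).

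The number of members raised under the other settings is given here beside the shares of all tested genes that rose and fell. It was 71 with DESeq2's size factors, where 24.4% of all genes rose and 23.8% fell, 68 with library totals alone (23.1% and 25.3%), 68 by DESeq2 (16.1% and 15.6%) and 68 with no low count filter (14.5% and 15.3%). On log2(TPM + 0.1) it was 49 (15.0% and 22.8%), and on log2(TPM + 1) without a filter 42 (10.3% and 15.3%), 1 of them Rpl39l, which has 0 counts with PBS and 3 or 4 with ONCM. Without PBS replicates 1, 2 and 3 in turn it was 61, 65 and 69 (20.6%, 20.6% and 21.2% of all genes rose; 21.2%, 21.4% and 22.0% fell). Without ONCM replicates 1, 2 and 3 in turn it was 65, 73 and 65 (21.5%, 21.1% and 22.3%; 21.8%, 21.6% and 23.4%). Members thus rose at a higher share than all genes in each of these fits.

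The symbol rule leaves out 5 further genes of this group. Among them, Rpsa, Fau and Rack1 encode ribosomal proteins under other names, Fau as a fusion with a ubiquitin-like sequence, and Rpl36al is a copy of Rpl36a. All 5 rose, beside 23.9% of all tested genes, with Rpsa, Fau, Rack1 and Rpl36al at 0.21, 0.24, 0.22 and 0.22 on the log2 scale. Rpsa went from 503 to 583 CPM and Rack1, a scaffold on the small subunit, from 298 to 346 CPM.

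Mitochondrial ribosomal proteins, which build the separate ribosome of that organelle, mostly did not pass the test. Among 78 tested genes there were 8 that rose and 16 that fell, and the other 54 did not pass, beside 23.9% and 24.4% of all tested genes that rose and fell. They had a median log2 fold change of -0.02. The smallest p-values were those of Mrpl28, which rose by 0.31, and of Mrpl42 and Mrps6, at -0.28 and -0.20. Their summed share of counts was 0.213%, 0.217% and 0.224% with PBS and 0.215%, 0.209% and 0.216% with ONCM, so the groups overlapped.

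**Figure D5:**
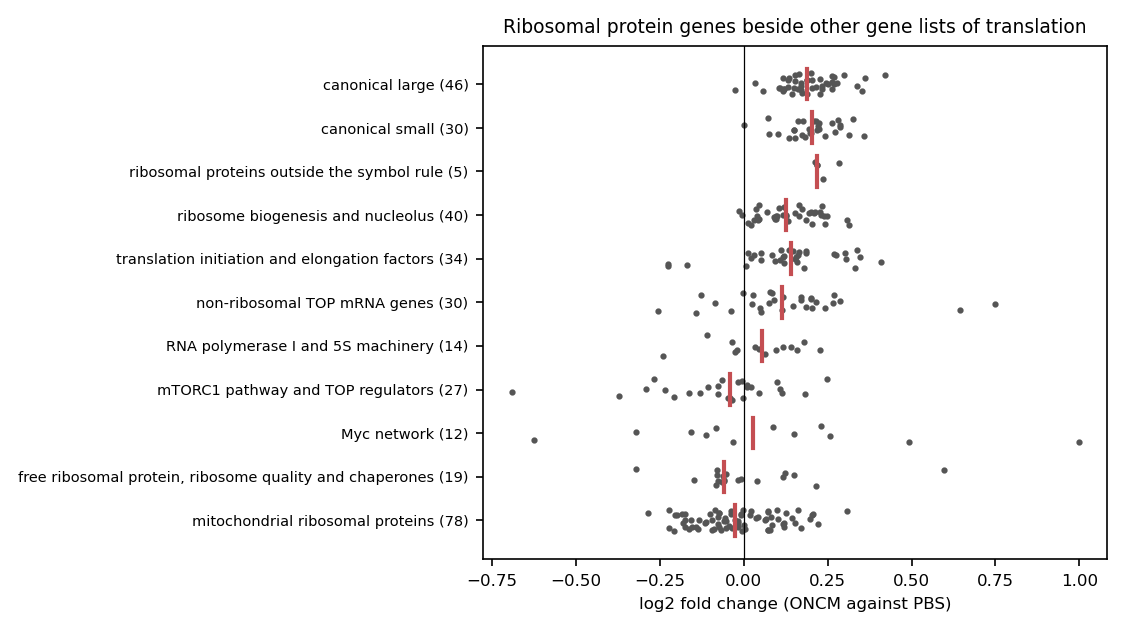
Log2 fold change (horizontal axis) of every tested gene in each list of the translation machinery, 1 grey point per gene with random vertical spread, and the list's median in red. Medians run from 0.22 for ribosomal proteins outside the symbol rule to -0.06 for ribosome quality genes, with mitochondrial ribosomal proteins at -0.02.

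Genes that assemble ribosomes rose in 26 of 40 cases, and 0 fell, with a median of 0.13, where 23.9% of all tested genes rose and 24.4% fell. Fbl, the methyltransferase of small nucleolar RNPs, rose from 68.2 to 84.7 CPM, Rrp12, an export factor of pre-ribosomes, from 135 to 167 CPM, and the nucleolar protein gene Ncl from 593 to 683 CPM. In the list of RNA polymerase I and 5S RNA machinery 5 of 14 rose and 1 fell, with a median of 0.06. Gtf3c1 and Ubtf, factors for 5S and ribosomal RNA genes, rose by 0.23 and 0.16, and Taf1b had -0.24 on the log2 scale. The Ubtf call was lost on log2(TPM + 1) (0.08, limma adjusted p = 0.223).

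Of 34 initiation and elongation factor genes 25 rose and 3 fell, with a median of 0.14, beside the same 23.9% and 24.4% of all genes. Eif6, which keeps free large subunits from joining small ones, rose by 0.41, the helicase gene Eif4a1 by 0.34 and Eif3c, a subunit of the factor that binds the small subunit, by 0.27. Those that fell were Eef1a2, Eif4g3 and Eif1ax. Of 30 other genes whose messages carry a TOP tract, 17 rose and 4 fell, with a median of 0.12. Eef1b2, an exchange factor for elongation factor 1, rose 1.68-fold from 158 to 265 CPM and Pabpc1, the poly(A)-binding protein, from 347 to 423 CPM. Eif2s3x, a subunit of initiation factor 2, rose 1.56-fold, but it is X-linked and escapes X inactivation, and Xist differed between the groups. The fallers here were Eif4a2, Eif3f, Eif4b and Nap1l1.

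In the mTORC1 and TOP regulator list 5 of 27 rose and 8 fell, with a median of -0.04. Among all tested genes 23.9% rose and 24.4% fell, so the counts here and in the next lists are near that background. Pdcd4, an inhibitor of the helicase Eif4a1, went from 18.8 to 11.7 CPM (log2 fold change -0.69) and Deptor, an inhibitor of mTOR, from 112 to 91.7 CPM (-0.29). Eif4ebp1, which binds the cap-binding factor eIF4E and keeps it from eIF4G when mTORC1 is inactive, rose by 0.25. Larp1, the protein that binds TOP tracts, also fell, at -0.07 on the log2 scale (edgeR adjusted p = 0.0289). The rest of the 8 that fell were Sesn1, Rps6kb1 (-0.23), Tbc1d7, Sesn3 and Larp4b. Besides Eif4ebp1, those that rose were Rraga, Rragc, Lamtor1 and Rps6kb2. In the list of Max, its partners and related factors 4 of 12 rose and 3 fell. Mxd1 and Max rose by 0.49 and 0.26, and Mxd4 was at -0.63. Among 19 genes of ribosome quality control and ribosomal protein escort 5 rose and 3 fell, with Ascc3 and Edf1, both acting at collided ribosomes, rising by 0.60 and 0.21, and Ube2o, a ubiquitin ligase for unassembled ribosomal proteins, at -0.32.

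Ribosomal protein genes have many processed pseudogenes, whose reads can be confused with those of the parent gene. The table holds 213 rows named as such copies of 52 members, and 176 of them had at least 1 read. Together they took 1.91% of the reads of these members and copies combined. The copy share was above 5% for 6 members, with Rpl15, Rpl10 and Rpl10a at 9.3%, 8.39% and 7.71%. When copies were added to their parents, 70 members rose and 0 fell, beside 24.0% and 24.4% of all genes, and the canonical median was 0.19. Copies with other names were not added.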

How the data were processed

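The authors deposited 1 table of 45777 genes with raw read counts, FPKM and TPM for 6 libraries, per the file headers. Counts were used for the main tests, and the TPM values that the authors deposited served for levels per length and as an alternative scale. The deposited FPKM values were not used here. The build named is mm10, per the submitters' processing notes. Aligner, counter and strandedness: not given in the sources used here. Near-identical copies and overlapping genes may therefore share reads. Columns were assigned by the sample codes that labels and headers share, and 45679 rows matched a RefSeq gene entry (GRCm38.p6).

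Counts were fitted in R 4.3.3 with edgeR 4.0.16 over the whole table, ONCM against PBS without covariates: filterByExpr defaults (20354 genes kept), TMM scaling, robust dispersions and the quasi-likelihood F-test. Benjamini-Hochberg adjusted p under 0.05 over all tested genes was the threshold, and a gene is said to have risen or fallen only past it. SE is the size of the log2 fold change divided by the square root of F, and intervals are 95%. CPM values are TMM-scaled. The fit was also run on simulated counts. There each gene was drawn on its own, so that run does not cover deviations that members of 1 library share. Alternatives used limma 3.58.1, with log2(TPM + 1) for genes with a mean of at least 0.1 TPM, and DESeq2 1.42.0. Intervals and the floor of 3 counts cover counting or replicate error only.

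The members, the lists and the markers were chosen with earlier results of these data known, so counts over them are descriptions and no list was tested. Genes named are all paralogues among the members, the 6 highest and 6 lowest canonical log2 fold changes, and the 5 highest and 3 lowest TPM. Also named are the X-linked members, genes outside the symbol rule and up to 3 smallest p-values of each list. Rpl30, Rps16, Rpl5, Rpl7, Rps6, Rpl15, Rpl18, Rpl19, Rps4l and Larp1 were named after their values were seen. So were the other fallers of the lists and Rraga, Rragc, Lamtor1 and Rps6kb2. Results of some genes that this rule picks are not reported here.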

Additional observations from a re-analysis of the deposited data

How the results depend on the processing

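The count of members that rose was 70 and ran from 68 to 71 under DESeq2's size factors, library totals alone, the DESeq2 test and no low count filter, with 0 members lowered each time. Leaving out 1 library at a time gave 61 to 73 raised, 0 lowered and a canonical median log2 fold change of 0.16 to 0.22. Of the 69 canonical genes that rose, 60 did so under all 6 of these fits and 41 also under each of the 3 TPM settings. On log2(TPM + 1), log2(TPM + 0.1) and log2(TPM + 1) without a filter the canonical median was 0.13, 0.13 and 0.13, and 1 member fell in each. The number raised was 49, 49 and 42 (10.3% of all genes tested without a filter), the last with Rpl39l, a gene at 4 counts or fewer. These settings change unit and test together, so the cause was not tested. For all genes the number raised went from 4869 on counts to 3543 on log2(TPM + 1) and the number lowered from 4960 to 5384, a shift toward falls. Replicate numbers are shared between the groups. Deviations from the group mean correlated at -0.05, -0.01 and 0.00 across genes for same-numbered libraries, and at -0.02 to 0.03 for the other pairs. Such values cannot show whether same-numbered libraries were prepared together. With the replicate block 68 members rose, beside 4733 of all 20354 tested genes that rose and 4864 that fell. The canonical median was 0.20, and Rps27l lost its call (0.16, edgeR adjusted p = 0.0505). Of the 54 single genes compared, 8 changed their side of the threshold under some setting, 7 of them members. Of these, Rps15a lost its call without PBS replicate 1 (0.12, edgeR adjusted p = 0.0523) and Rpl36a on log2(TPM + 1) without a filter (0.09, limma adjusted p = 0.0519). Genes at a few counts, such as Rpl3l and Rpl39l, are limited by depth.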

Other observations

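The transcript length that the deposited TPM values imply was not constant between libraries for every gene. Over the 76 canonical genes the ratio of CPM to TPM, relative to the canonical median of the same library, varied by a median factor of 1.002 between the highest and lowest library. It varied by over 1.1 for 3 genes, Rpl18 (1.354), Rpl5 (1.212) and Rpl19 (1.107). Rpl18 was at 140.9, 155.1 and 153.1 CPM with PBS and 177.4, 170.3 and 184.9 CPM with ONCM, without overlap. In TPM the same libraries gave 384, 506 and 454 with PBS and 436, 418 and 601 with ONCM, with overlap. Rpl5 likewise did not overlap in CPM (309.2 to 323.5 and 352.3 to 367.1) but did in TPM (479.8 to 508.0 and 453.0 to 562.9).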
